A study of Rattus norvegicus with 6 samples.

Results

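Tetraspanins are small membrane proteins that cross the membrane several times and gather integrins, receptors and enzymes into patches known as tetraspanin webs. In mast cells and basophils they are known from both ends of granule release. CD63 lies in the membrane of secretory granules and late endosomes and reaches the surface when granules fuse, so it serves as a marker of degranulation, while CD81, CD9, CD82 and CD151 sit mainly at the cell surface. An antibody to CD81 is known to block the release that follows IgE receptor crosslinking in RBL-2H3 cells. The 10 genes described here are Cd63, Cd9, Cd81, Cd82, Cd151, Cd53, Cd37, Tspan4, Tspan14 and Tspan3, taken by name from a table of 22601 genes, in which all 10 were listed. A further 21 tetraspanin genes are listed there and are used for comparison.

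The measurements come from 3 libraries of RBL-2H3 cells treated for 6 h with 10 µM PIO, named in the series as a PPARγ agonist, and from 3 control libraries of the same line without PIO. This line of rat basophilic leukemia cells, labelled WT in both groups, carries the high-affinity IgE receptor and is used as a model of mast cells. The labels record no vehicle, no time for the control libraries, no crosslinking of the receptor and no separate cultures for the replicates. A difference of vehicle or time therefore cannot be told apart from PIO, and p-values speak for the spread of these 6 libraries alone, which could be a technical one. Values are FPKM, fragments scaled to gene length and library size, so levels of different genes can be set side by side. The FPKM values resolved into whole reads, out of library totals of 14048202 to 14322720 reads with PIO and 14105533 to 15084729 in control. All 12 mast cell and basophil markers were abundant, summing to 4814 to 4962 FPKM with PIO and 4789 to 4995 FPKM in control. Of the macrophage, B cell, T and NK cell, and fibroblast and epithelial markers, 0 of 8, 0 of 6, 2 of 8 and 2 of 9 reached a mean of 0.5 FPKM. The T and NK cell sum, 330 to 371 FPKM with PIO and 310.0 to 335 FPKM in control, was almost all Nkg7, with Cd3d and Cd8a at 0 in every library, and its groups overlapped. The fibroblast and epithelial sum, mostly Col3a1, did not overlap between the groups, at 5.50 to 5.96 FPKM with PIO and 6.49 to 6.69 FPKM in control, with Dcn and Epcam at 0 in every library. The part of either sum in the results below was not tested.

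The 250 bases upstream of the start site are shown for the 2 most abundant members, Cd63 and Cd81, and for Cd53, which with Cd9 was at or under the floor of reads, to show members from both ends of the levels described next. They come from RefSeq (build GRCr8). Promoters of 8 of the 10 members were matched. Capitals mark the E-box CACGTG, the GC box GGGCGG and the single repeat AGGTCA of PPAR elements, on either strand.
Cd63, chr7:1921894-1922143, plus strand: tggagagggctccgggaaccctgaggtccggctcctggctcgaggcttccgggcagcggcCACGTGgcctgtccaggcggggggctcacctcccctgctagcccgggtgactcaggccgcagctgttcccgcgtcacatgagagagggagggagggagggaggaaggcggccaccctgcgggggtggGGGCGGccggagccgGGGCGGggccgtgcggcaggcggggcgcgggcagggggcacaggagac
Cd81, chr1:207665047-207665296, plus strand: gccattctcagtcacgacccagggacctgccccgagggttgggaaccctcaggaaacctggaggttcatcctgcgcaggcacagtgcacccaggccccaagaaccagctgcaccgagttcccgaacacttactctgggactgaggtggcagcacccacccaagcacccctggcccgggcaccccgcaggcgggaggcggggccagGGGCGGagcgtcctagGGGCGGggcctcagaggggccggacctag
Cd53, chr2:197087897-197088146, minus strand: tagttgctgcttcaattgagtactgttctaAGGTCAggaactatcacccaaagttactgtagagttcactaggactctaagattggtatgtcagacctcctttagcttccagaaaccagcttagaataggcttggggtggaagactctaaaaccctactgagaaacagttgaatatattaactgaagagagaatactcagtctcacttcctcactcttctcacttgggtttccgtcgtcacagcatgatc
The stretch before Cd63 was 76.4% G and C and that before Cd81 69.2%. That before Cd53 was 42.4% and that before Cd9, also at or under the floor of reads, 64%. The median over 33469 rat promoters was 51.2%. Cd63 was the 1 member of 8 with a CACGTG, a motif found in 5.59% of all promoters, and 6 of 8 members, among them Cd63, Cd81 and Cd9, held a GGGCGG, found in 30.5%. Cd53 was the 1 member of 8 with an AGGTCA, found in 14.1% of promoters. None of the 8 members with a matched promoter held the full PPAR element AGGTCANAGGTCA, in which N is any base. Of all 33469 promoters, 17 (0.0508%) held it. These matches describe letters in these windows only.

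**Figure D1:**
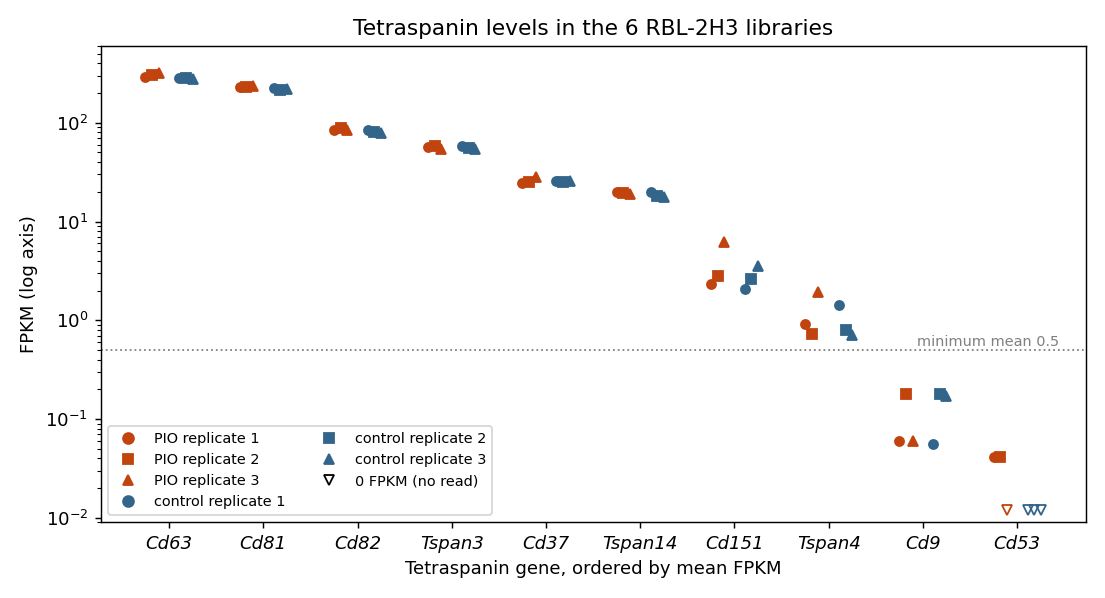
FPKM (log axis) of the 10 tetraspanins in each of the 3 PIO and 3 control libraries, with open triangles for a library without a read. The order of the genes is the same in every library, from Cd63 at 278 to 321 FPKM to Cd53 with at most 1 read, although Cd9 and Cd53 are too scarce to be ranked.

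The tetraspanin levels spread from abundant to nearly undetected, and their order was the same in all 6 libraries. Cd63 was the most abundant at a mean of 293.5 FPKM, higher than 98.5% of the genes with any read. Cd81 followed at 225.8 FPKM, Cd82 at 83.7, Tspan3 at 56.1, Cd37 at 25.7 and Tspan14 at 19.1 FPKM. Cd151 stood at 3.26 FPKM and Tspan4 at 1.08 FPKM, as means of the 6 libraries. Cd9 and Cd53, which encode surface tetraspanins of many blood cells, were at or under the floor of 3 reads in every library. No pair of neighbours in this order overlapped in range. The closest were Cd151, at 2.05 FPKM or more, and Tspan4, at 1.92 FPKM or less. Cd9 and Cd53 lay too low to be ranked against each other. Cd63, Cd81 and Cd82 together made up 85.4% of the summed FPKM of the 10 genes in each PIO library and 84.8% to 85.0% in the control libraries.

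Set among the whole family of 31 listed tetraspanins, the 10 genes held 71.0% to 71.9% of the summed FPKM with PIO and 69.5% to 71.3% in control. The next most abundant relatives were Tspan13 at 106.0 FPKM, Rom1 at 58.5 FPKM and Tspan33 at 53.9 FPKM. Tspan13 therefore ranked above Cd82 in the family. Rom1 is best known as a photoreceptor disc protein. Tspan33 belongs, with Tspan14, Tspan15 and Tspan17, to the C8 group of tetraspanins, which escort the protease ADAM10 to the cell surface. Grouped this way after the values were seen, the C8 members ran from Tspan33 and Tspan14 (19.1 FPKM) down to Tspan17 (1.60 FPKM) and Tspan15 (1.04 FPKM). Tspan10 (0.094 FPKM, 1 to 6 reads) and Tspan5 (0.0161 FPKM, 0 to 2 reads) lay too near the floor of 3 reads to be ranked. Tspan11, Upk1b and Prph2 were listed at 0 in every library. A value of 0 can also arise where reads could not be assigned.

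Cd63 encodes the granule and late endosome tetraspanin. It was measured at 294, 301 and 321 FPKM in PIO replicates 1 to 3, against 286, 281 and 278 FPKM in control replicates 1 to 3. The lowest PIO library lay above the highest control library, and PIO replicate 3 was the highest of all. The means were 305.5 ± 14.0 FPKM with PIO and 281.5 ± 4.12 FPKM in control (SD, n = 3 each), a difference of 8.53%. On the log2(FPKM + 0.5) scale the fold change was 0.12 (SE 0.04, 95% confidence interval 0.03 to 0.21), and it did not pass over all genes (limma, Benjamini-Hochberg adjusted p = 0.34). Without PIO replicate 3 it was 0.08 (limma adjusted p = 0.69). Without PIO replicate 2 the fold change was 0.126 (limma adjusted p = 0.646) and without PIO replicate 1 it was 0.144 (limma adjusted p = 0.213). The adjusted p thus also rose where the fold change did not fall.

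Cd81 encodes a surface tetraspanin that pairs with immunoglobulin-like partners and integrins. It stood at 229.5, 232 and 236 FPKM in PIO replicates 1 to 3, against 227, 213 and 218 FPKM in control replicates 1 to 3. The groups did not overlap, although PIO replicate 1 and control replicate 1 lay close together. The means were 232.3 ± 3.28 and 219.3 ± 7.15 FPKM for PIO and control (SD, n = 3 each), and the log2 fold change was 0.08 (95% interval 0.004 to 0.16, limma adjusted p = 0.386). Cd82 encodes a tetraspanin known as a metastasis suppressor that restrains integrins and growth factor receptors. Its values were 85.1, 88.6 and 84.5 FPKM with PIO, against 83.8, 80.8 and 79.4 FPKM in control. Again all PIO libraries lay above all control libraries, by a margin between the nearest libraries that was smaller than the SD within either group (2.23 FPKM with PIO, 2.25 FPKM in control). The log2 fold change of Cd82 was 0.08 (95% interval -0.004 to 0.17, limma adjusted p = 0.419).

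Across the whole table, 4 of 10410 genes tested passed (0.0384%), all of them higher with PIO, and none of the 8 tested tetraspanins was among them. The groups did not overlap, with PIO higher, for 3 of these 8 members, where 10.5% of all genes tested did so in that direction. At an unadjusted limma p under 0.05 stood 2 of the 8, Cd63 and Cd81, beside 12.5% of all genes tested. In the limma fit the log2 fold changes of the 8 ran from 0.004 to 0.33 with a median of 0.08, beside a median of 0.01 over all genes tested. The 8 were all above 0 on the deposited scale, as were 5618 of the 10410 genes tested. Tspan3 fell below 0 under TPM, median-of-ratios and quantile scaling and Cd37 under TPM scaling. Under TPM scaling Cd63 moved from 0.117 to 0.088, Cd81 from 0.084 to 0.055 and Cd82 from 0.081 to 0.052. The median over all genes tested was then -0.0186. The summed FPKM of the 10 genes was 713, 728 and 751 in PIO replicates 1 to 3, against 703.5, 677.5 and 677 in control replicates 1 to 3. All genes summed to 502934, 512046 and 515593 FPKM with PIO, against 506888, 496066 and 496980 FPKM in control. The 10 genes held 0.142%, 0.142% and 0.146% of these totals with PIO and 0.139%, 0.137% and 0.136% in control. FPKM is relative to the library, so such a sum does not measure RNA per cell. In bulk RNA it also cannot tell a change within cells from a different mix of cells.

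**Figure D2:**
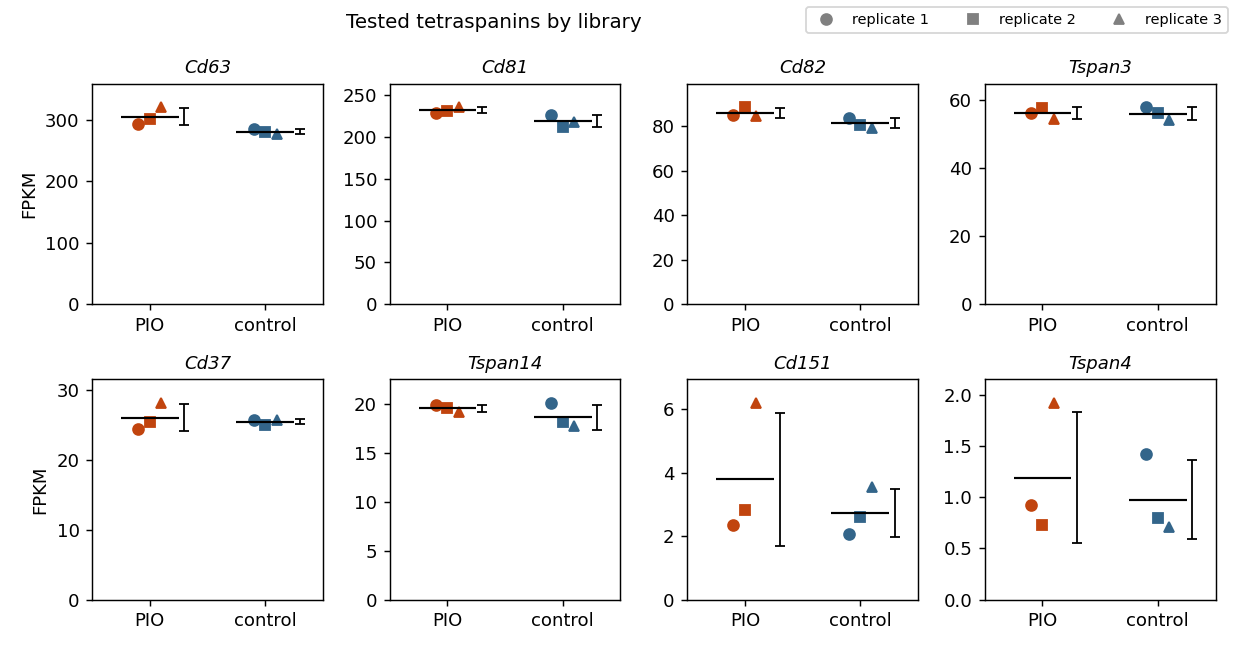
FPKM of the 8 tested tetraspanins in each library, PIO left and control right, on axes that start at 0, with horizontal lines for the group means and bars for the SD (n = 3 each). Cd63, Cd81 and Cd82 show 3 PIO values above all control values by small margins, while Cd151 and Tspan4 are spread widely within groups.

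Tspan3, the other abundant surface and endosomal member, was at 56.3, 57.7 and 54.4 FPKM with PIO, against 57.8, 56.1 and 54.0 FPKM in control. The groups overlapped entirely, with a log2 fold change of 0.004 (95% interval -0.09 to 0.10, limma adjusted p = 0.975). Cd37, a tetraspanin of leukocytes, was at 24.4, 25.4 and 28.1 FPKM with PIO, against 25.6, 25.0 and 25.7 FPKM in control. PIO replicate 3 held the highest value and PIO replicate 1 the lowest. Its log2 fold change was 0.03 (95% interval -0.10 to 0.16, limma adjusted p = 0.865) and turned to -0.03 without PIO replicate 3. Tspan14, a partner of ADAM10, was at 19.9, 19.6 and 19.1 FPKM with PIO, against 20.1, 18.1 and 17.7 FPKM in control. Control replicate 1 was the highest of the 6 libraries, and the log2 fold change was 0.07 (95% interval -0.06 to 0.20, limma adjusted p = 0.625). It was 0.121 without control replicate 1 and 0.032 without control replicate 3.

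Cd151 and Tspan4 were the most variable of the tested members. Cd151 encodes a tetraspanin that binds laminin-receptor integrins. It was at 2.34, 2.83 and 6.20 FPKM (69, 85 and 183 reads) in PIO replicates 1 to 3, against 2.05, 2.60 and 3.55 FPKM (65, 77 and 110 reads) in control replicates 1 to 3. Replicate 3 was the highest in both groups, and PIO replicate 3 exceeded every other library. The log2 fold change was 0.33 (95% interval -0.37 to 1.03, limma adjusted p = 0.666), and without PIO replicate 3 it turned to -0.05. Tspan4, which is known for its part in migrasomes, the vesicles that migrating cells leave behind, had 32, 26 and 67 reads with PIO and 53, 28 and 26 in control. This corresponds to 0.920, 0.733 and 1.92 FPKM with PIO, against 1.42, 0.802 and 0.711 FPKM in control. The groups overlapped, the log2 fold change was 0.16 (95% interval -0.46 to 0.78, limma adjusted p = 0.822), and it turned to -0.13 without PIO replicate 3. A table entry annotated as similar to Tspan4, LOC100911766, was listed at 0 in every library, so the Tspan4 value is uncertain where reads were shared with that copy.

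**Figure D3:**
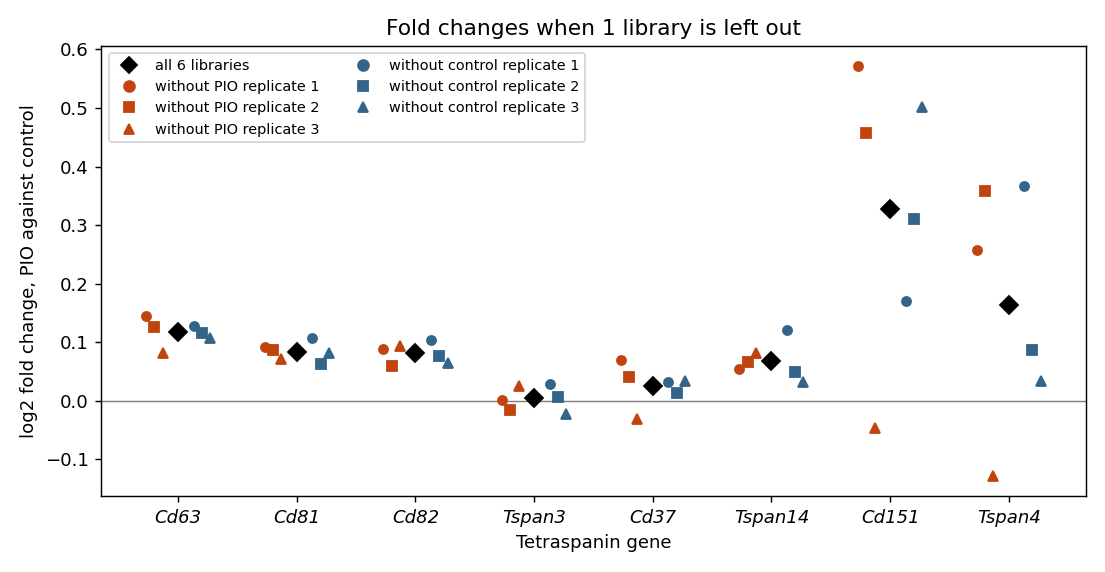
Log2 fold change of PIO against control for the 8 tested tetraspanins with all 6 libraries (diamonds) and with each library left out (orange for a PIO library, blue for a control library). Leaving out PIO replicate 3 puts Cd151, Tspan4 and Cd37 below 0, while Cd63, Cd81, Cd82 and Tspan14 stay above 0 in all 6.

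PIO replicate 3 held the highest value of the 6 libraries for 5 of the 8 tested members (Cd63, Cd81, Cd37, Cd151 and Tspan4). Over all genes tested it was the highest for 19.8%. Cd151 and Tspan4 lie close together on chromosome 1 in the GRCr8 annotation, with Polr2l, an RNA polymerase subunit gene, between them. Polr2l, looked at after its values were seen, was at 15.4, 8.01 and 3.41 FPKM in PIO replicates 1 to 3 and 11.3, 6.99 and 3.07 FPKM in control replicates 1 to 3. In both groups Polr2l was thus lowest in replicate 3, in which Cd151 was highest. Chid1, on the far side of Tspan4, was at 1.68, 2.87 and 2.35 FPKM with PIO and 2.21, 2.64 and 4.12 FPKM in control. Its replicate 3 was the highest in control only. Cracr2b, on the far side of Cd151, had 3 to 6 reads per library. The library kit marks strand, but no source used here says whether strand was used in counting, and the part of neighbouring reads in these values was not tested.

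The 2 members below the minimum mean for testing were Cd9 and Cd53. Cd9 had 1, 3 and 1 reads in PIO replicates 1 to 3 and 1, 3 and 3 reads in control replicates 1 to 3, where 3 reads correspond to 0.169 to 0.181 FPKM. Cd53 had 1, 1 and 0 reads with PIO and none in the 3 control libraries, where 3 reads correspond to 0.116 to 0.125 FPKM. Both were at or under the floor in both groups, so no fold change is given. Compared within each library, Cd9 was at 0.0188% to 0.0642% of the FPKM of Cd63.

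Among the other tetraspanins 10 were abundant enough to test and none passed. Of these 10, 7 had a log2 fold change above 0 and 3 below, with a median of 0.05 (0.025 under TPM scaling). Over all genes tested 5618 were above 0 and 4792 below, with a median of 0.01 (-0.0186 under TPM scaling). Tspan31, a small tetraspanin known for its amplification in sarcoma, was at 29.1, 30.4 and 32.8 FPKM with PIO, against 28.3, 28.6 and 29.0 FPKM in control (log2 fold change 0.10, limma adjusted p = 0.443). Tspan9, a tetraspanin known from platelets, was at 22.3, 21.3 and 21.2 FPKM with PIO, against 20.2, 20.4 and 20.9 FPKM in control (0.07, limma adjusted p = 0.509). Without PIO replicate 3 the log2 fold change of Tspan31 was 0.055. In both genes the groups did not overlap, with PIO higher, as in no other of the 10, while 10.5% of all genes tested did not overlap in that direction. Rom1 (59.9 ± 0.640 with PIO and 57.1 ± 2.17 FPKM in control, SD, n = 3 each), Tspan33 (54.5 ± 1.11 and 53.3 ± 5.88 FPKM) and Tspan13 (105.3 ± 1.66 and 106.6 ± 3.78 FPKM) overlapped between the groups. The whole family summed to 1021 ± 21.6 FPKM with PIO and 971 ± 17.0 FPKM in control (SD, n = 3 each).

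**Figure D4:**
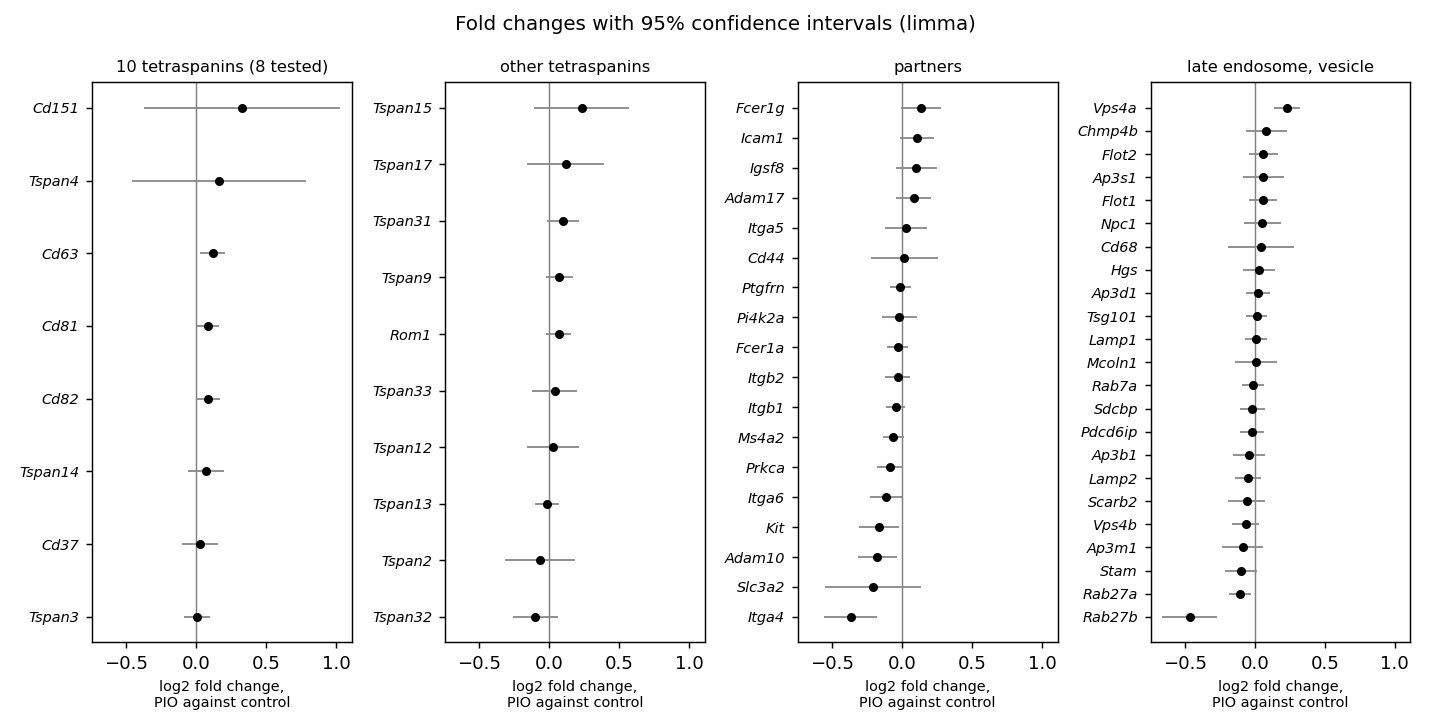
Log2 fold changes of PIO against control with 95% confidence intervals from limma for the tested tetraspanins, the other tested tetraspanins, their partners and genes of late endosomes and vesicles. The tetraspanins lie between 0.004 and 0.33 and the partners between -0.37 and 0.14, and no gene in the 4 panels passed the adjusted threshold.

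Proteins that tetraspanins bind were measured as a list of 20 genes, of which 18 were tested and none passed. Of the 18, 6 had a log2 fold change above 0 and 12 below, with a median of -0.03 (-0.060 under TPM scaling). Over all genes tested that median was 0.01 (-0.0186 under TPM scaling), with 5618 genes above 0 and 4792 below. The groups did not overlap, with PIO lower, for 6 of the 18 (Itga4, Itga6, Itgb1, Adam10, Ms4a2 and Prkca), where 8.09% of all genes tested did so in that direction. Itga4, the integrin α4 subunit that binds VCAM1 and joins CD81 and CD151 complexes, was at 5.65, 5.10 and 5.02 FPKM with PIO, against 6.41, 7.67 and 6.73 FPKM in control. All 3 PIO libraries were below all control libraries (log2 fold change -0.37, 95% interval -0.56 to -0.18, limma adjusted p = 0.276). Adam10, the protease that Tspan14 and Tspan33 escort, was at 20.7, 19.4 and 17.9 FPKM with PIO, against 21.0, 22.7 and 22.1 FPKM in control. Here too the groups did not overlap (-0.18, 95% interval -0.32 to -0.04, limma adjusted p = 0.34). Kit, the stem cell factor receptor, was at 308, 269 and 280.0 FPKM with PIO, against 302, 315 and 344 FPKM in control, and the groups overlapped (-0.16, limma adjusted p = 0.371). The most abundant partners were the IgE receptor subunit genes Ms4a2 (825 ± 21.0 FPKM with PIO and 861 ± 7.95 FPKM in control, SD, n = 3 each) and Fcer1g (616 ± 26.7 and 562 ± 45.7 FPKM).

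Genes of late endosomes, granule transport and extracellular vesicles, the compartments that CD63 shares, formed a list of 23. All 23 were tested and none passed, with 12 log2 fold changes above 0 and 11 below and a median of 0.007. Over all genes tested 5618 were above 0 and 4792 below. The groups did not overlap for 2 of the 23 with PIO higher and for 3 with PIO lower. Over all genes tested these shares were 10.5% and 8.09%. Rab27b, a small GTPase that docks secretory granules at the membrane, was at 33.8, 28.9 and 27.7 FPKM with PIO, against 37.9, 42.3 and 44.9 FPKM in control. No PIO library reached the lowest control library, and the log2 fold change was -0.47 (95% interval -0.66 to -0.27, limma adjusted p = 0.212). Its relative Rab27a was at 96.1, 99.0 and 96.4 FPKM with PIO, against 106, 106 and 102.0 FPKM in control (-0.11, limma adjusted p = 0.332), also without overlap. Vps4a, the ATPase that takes apart the ESCRT machinery of vesicle budding, was at 40.3, 40.3 and 39.9 FPKM with PIO, against 32.8, 35.4 and 34.5 FPKM in control. Its PIO values lay above all control values (0.23, 95% interval 0.14 to 0.32, limma adjusted p = 0.212). Sdcbp, which encodes syntenin, a scaffold that binds CD63 (235 ± 2.83 and 237.5 ± 9.96 FPKM for PIO and control, SD, n = 3 each), and the lysosomal membrane gene Lamp1 (153 ± 2.84 and 152 ± 4.48 FPKM) overlapped between the groups.

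The genes whose values across the 6 libraries were most like those of Cd63, the member with the smallest p, were Fkbpl, Ndufv3, Chpf2, Pctp and Vps28. Likeness was the mean absolute difference of log2 deviations from each gene's own mean. It was 0.0098 to 0.0136 for these 5 and had a median of 0.0844 over all genes tested. The 5 were picked as the smallest values of this measure, so their distance from the median follows from the choice. Whether they vary with Cd63 beyond these 6 libraries was not tested.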

How the data were processed

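RNA-seq was measured in 6 libraries, 3 per group. The authors deposited FPKM per gene and library, from stranded mRNA libraries per the labels' protocols. Per the submitters' processing notes the tools named include HISAT2 2.2.1.0, BWA 0.7.5a, Cufflinks and HTSeq, and the role of each is not stated in any source used here. The notes name the human build GRCh38 while the gene identifiers are those of the rat, so no coordinates are given for expression values. Reads and gene lengths were recovered from the FPKM steps for 15429 genes. A floor of 3 reads covers counting error only, as there were no molecular identifiers.

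The test took genes whose mean over the 6 libraries was 0.5 FPKM or more. It was run in limma 3.58.1 (R 4.3.3) on log2(FPKM + 0.5), without covariates, using a variance trend, and tests were two-sided with Benjamini-Hochberg adjusted p at a threshold of 0.05. Changes of low genes are understated on this scale. Exact permutation of 3 against 3 libraries cannot go below p = 0.1 and was not used. The code was tested on simulated data. The members and the lists were chosen with earlier results of these data known. Named were all 10 members and, of each comparison list, the 3 genes with the highest mean and the 3 with the smallest p, plus the 5 most like the member with the smallest p. Other genes named were chosen after their values were seen. Tables and figures were made with Python 3.11.15, pandas 2.3.3 and matplotlib 3.10.9.

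Alternatives were other pseudocounts (0.1 and 1), filters, scalings and variance fits, the replicate number as a block, limma-voom on the recovered reads, and each library left out.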

Additional observations from a re-analysis of the deposited data

How the results depend on the processing

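None of the 8 tested tetraspanins, and none of the genes in the 3 comparison lists, passed under any of the 18 alternatives run, with limma adjusted p of the members between 0.213 and 0.992. Cd151 and Tspan4 could not be tested at a minimum mean of 5 FPKM. The median log2 fold change was 0.049 to 0.115 for the members, 0.025 to 0.072 for the other tetraspanins, -0.060 to -0.027 for the partners and -0.022 to 0.007 for the late endosome and vesicle genes, whose sign is therefore unsettled. Under TPM scaling the median over all genes tested was itself -0.0186. The level order was the same under the 3 other scalings and without any 1 library. Over all genes, 4 passed, against 1 without a filter, 2 without a variance trend, 7 with a robust variance fit, 7 with limma-voom on recovered reads, and 3 to 4 without a library. The 4 were all higher with PIO. A lower gene also passed with a pseudocount of 0.1 and under TPM scaling (4 higher and 1 lower each), with the robust fit and limma-voom (6 higher and 1 lower each) and without control replicate 2 (3 higher and 1 lower), and without control replicate 3 there were 2 higher and 2 lower. With the replicate block 3 genes passed. Same-numbered libraries showed no common deviation across genes (correlations of -0.068, 0.028 and 0.078). Such correlations cannot tell whether libraries were prepared in pairs, and the labels name no pairing. Log2 fold changes turned to -0.025, -0.002 and -0.005 for Tspan3 (TPM, median-of-ratios and quantile scaling), -0.002 for Cd37 (TPM), and -0.018 and -0.020 for Lamp1 (quantile and TPM). Without a library they ran from -0.022 to 0.028 for Tspan3, -0.031 to 0.070 for Cd37, -0.047 to 0.571 for Cd151, -0.128 to 0.367 for Tspan4, 0.032 to 0.121 for Tspan14, 0.055 to 0.139 for Tspan31, -0.037 to 0.012 for Tspan13, -0.022 to 0.125 for Tspan33, -0.042 to 0.016 for Sdcbp and -0.010 to 0.032 for Lamp1. The causes were not tested. Cd9 and Cd53 had at most 3 reads in any library, so their levels are uncertain.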
